A study of Bos taurus with 12 samples.

Results

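The ubiquitin pathway genes described here are the autosomal genes whose full name in the authors' annotation contains ubiquitin, tripartite motif, F-box, cullin or ring finger, and not zinc finger. A gene was taken when a listed locus lay within 10 kb of an annotated feature of it, on chromosomes 1 to 29 and outside 1 stretch near the start of chromosome 29, where the tables list 93 sites for 2 genes with such names. This gave 69 genes of the 2461 autosomal genes with a listed locus within 10 kb in either table, and of 3513 genes named anywhere in the tables. Single CpG sites were listed near 61 of the 69 genes (98 of 17730 sites), and windows of 500 bp, called tiles here, near 14 of them (90 of 7290 tiles), with 6 genes in both. The rule itself reads names and positions, not differences or q-values.

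The data come from 12 sperm DNA samples of male cattle, whose whole genomes were read by EM-seq, a methylation assay that converts unmethylated cytosines with enzymes in place of bisulfite. By their labels, daughter fertility was low for 6 samples and high for the other 6, and no breed, age, treatment or batch is given; whether each sample is a separate bull is not stated either. Sperm is the only tissue, and no expression values were available to check it by marker genes. The values analysed are the authors' own comparison of these groups, a methylation difference in percentage points with a p-value and a q-value for each locus in coordinates of ARS-UCD1.2. Which group was subtracted is not stated, so a sign below is the sign as listed and names no group. Values of single samples and read depth were not analysed here, so no spread between samples or depth can be set beside any value.

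Ubiquitin is a small protein that cells attach to other proteins to mark them for destruction by the proteasome or to change where and how they act. An activating enzyme (E1) charges ubiquitin, a conjugating enzyme (E2) carries it, and a ligase (E3) brings it to the target. Ligases are the most varied step: HECT ligases pass ubiquitin on themselves, and RING ligases bring the loaded E2 to the target. In cullin complexes a RING protein binds the E2 and a separate receptor, such as an F-box protein, binds the target. Tripartite motif (TRIM) proteins form a RING family. Deubiquitinases remove the mark. In the male germ line the pathway is known for the replacement of histones during sperm formation and for the marking of sperm mitochondria that the egg later removes.

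Most CpG sites near these genes differed little between the groups, and 4 sites near 4 genes stood apart, 3 of them positive. These were near ubiquitin like modifier activating enzyme 6, parkin, F-box and leucine rich repeat protein 17 and F-box and leucine rich repeat protein 19. A locus is called here when the authors' q-value is below 0.05 and the absolute difference is at least 10 points. By that rule 4 of 98 sites (4.08%) were called, against 3.93% of all 3995 autosomal sites within 10 kb of a gene, so the share of called sites was near the background. Of the genes, 4 of 61 (6.56%) had a called site, against 5.06% of 2115 autosomal genes. The chromosome 29 stretch that the rule leaves out lists 93 sites of 2 genes with such names. Of those 93 sites 9 were called, 7 negative and 2 positive. They were counted at any distance from the gene, so they are not matched to the 98 member sites. The count and the balance of signs given here therefore hold only with that stretch left out. Among the 98 sites the calls were 1 negative and 3 positive, where 2.28% of background sites were called negative and 1.65% positive. Over all member sites 46 differences were negative, 46 positive and 6 exactly 0, with a median of 0 points, and the background median was -0.354 points. Differences under 5 points made up 84.7% of member sites and 73.7% of background sites, and the median absolute difference was 2.16 points against 2.53 points. These shares are descriptions, because 46 of the 61 genes had a single listed site and neighbouring sites of a gene are not independent.

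**Figure D1:**
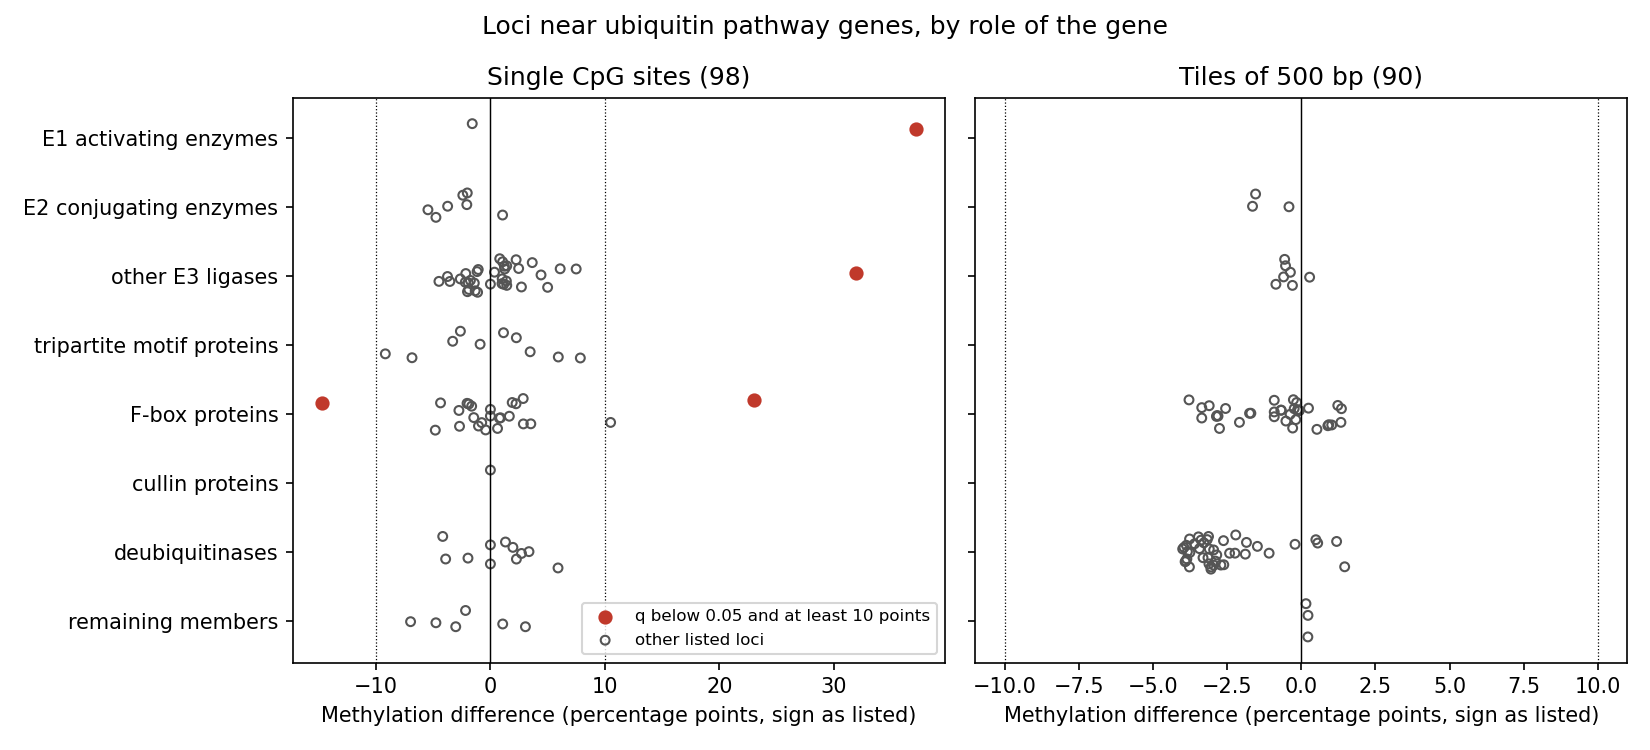
Methylation difference (x axis, percentage points, sign as listed) of the 98 member sites (left) and 90 member tiles (right), 1 point per locus. Loci are grouped on the y axis by the role read from the gene's name, with small random vertical offsets. Filled points are the 4 called sites, which lie at -14.7, 23.0, 32.0 and 37.2 points, dotted lines mark 10 points, and the x axes differ: the tiles all lie between -4.00 and 1.46 points.

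At the first step of the cascade, 2 activating enzymes had 1 site each. Ubiquitin like modifier activating enzyme 6 (ENSBTAG00000006837), which charges ubiquitin and the related modifier FAT10, had the largest difference of all member sites, 37.2 points with q = 8.05e-11 per the authors' deposited table. The site is at position 83399608 of chromosome 6, plus strand, inside an intron that spans 83391211 to 83410764 and 8397 bp from the intron's edge. It stood alone: the next listed site on the chromosome was 119743 bp away and had a difference of -0.597 points (q = 0.820), by the authors' deposited table, and no tile was listed within 2000 bp. Ubiquitin like modifier activating enzyme 3, the catalytic part of the enzyme that charges the ubiquitin-like protein NEDD8, had a promoter site at -1.59 points (q = 0.590) per the authors' deposited table. A promoter site here is one of the authors' promoter class, which among member sites reached up to 8686 bp from the closest feature. For activating enzyme 3 that feature is an intron listed with its start (32491698) above its end (32457270), so the class of this site is uncertain.

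Conjugating enzymes showed small differences at few sites. Of 7 sites near 4 such genes, 6 were negative and 1 was positive, and none had q below 0.05. In the background 55.8% of sites with a difference other than 0 were negative. Of the 6 negative sites 3 belonged to 1 gene, and 7 sites are too few to tell if the signs are a trend of the group. The lowest values belonged to ubiquitin conjugating enzyme E2 Q2 on chromosome 21, with 3 intronic sites at -5.46, -4.76 and -2.02 points and q between 0.209 and 0.491 per the authors' deposited table. Its first pair of sites lie 12 bp apart, at 31142575 and 31142587. Ubiquitin conjugating enzyme E2 D1, a broadly used partner of many RING ligases, was listed at -3.74 points (q = 0.460) per the authors' deposited table.

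The largest group was the genes named as ligase or ring finger outside the F-box and TRIM families, with 36 sites near 25 genes. Of the sites 15 were negative, 20 positive and 1 exactly 0. Groups were made by words in the full name, so not every gene here need be a ligase itself. An example is SEL1L, named as an adaptor subunit of a ligase. The group's 1 called site (2.78% of its sites, against 3.93% of background sites) lay in parkin RBR E3 ubiquitin protein ligase (ENSBTAG00000018996). Parkin is known for marking damaged mitochondria for removal. This site, at position 98074231 of chromosome 9 on the plus strand, was listed at 32.0 points with q = 0.000614 per the authors' deposited table. It lies in an intron from 97955040 to 98082222, 7991 bp from the edge. The other member site of parkin, in a different intron at position 97827681, was listed at 2.71 points (q = 0.769) by the authors' deposited table. The site listed closest to the called one, 52657 bp away in the same intron, had 1.15 points (q = 0.668) per the authors' deposited table. The large difference was therefore seen at 1 listed site of this long gene and not at its listed neighbours.

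A ligase with q below 0.05 but under 10 points was ubiquitin protein ligase E3 component n-recognin 5, a HECT ligase, at 6.10 points (q = 0.0407, intron, chromosome 14, position 62062890) per the authors' deposited table. Its other site, in another intron, was listed at 0.815 points (q = 0.713) per the authors' deposited table. WW domain containing E3 ubiquitin protein ligase 2, of the NEDD4 family, had 4 sites within 43 bp of an intron on chromosome 18, all positive, from 1.03 to 4.42 points with the lowest q at 0.247 per the authors' deposited table. The promoter site of ring finger and CCCH-type domains 1 (roquin, which directs the decay of immune messenger RNAs) was listed at 7.495 points (q = 0.196), and a site in its intron at -1.12 points (q = 0.683) per the authors' deposited table. Neither site of this gene had q below 0.05. All other sites of this group differed by 5 points or less in either direction.

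The TRIM proteins had 10 sites near 8 genes, 5 negative and 5 positive, and 1 of them had q below 0.05. That was an intronic site of tripartite motif containing 9, a ligase of neurons, at -9.18 points (q = 0.0308, chromosome 10, position 43837195) per the authors' deposited table, just under the 10-point minimum. Larger than most, but with q of 0.05 or more, were an intronic site of tripartite motif containing 55, a muscle ligase of the sarcomere, at 7.86 points (q = 0.0983) and the coding site of tripartite motif containing 52 at -6.85 points (q = 0.130), per the authors' deposited table. The promoter site of tripartite motif containing 34, an antiviral factor, was listed at 5.93 points (q = 0.238) per the authors' deposited table. The 3 intronic sites of tripartite motif containing 37 were listed at -0.900, 1.15 and 3.47 points, with q from 0.439 to 0.759, per the authors' deposited table. Signs were thus mixed among the TRIM genes and also between sites of 1 gene.

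Among F-box proteins, 25 sites lay near 8 genes and 2 were called, 1 of each sign. F-box and leucine rich repeat protein 17 (ENSBTAG00000054662, symbol FBXL17), a target-binding subunit of cullin ligases, had 1 site, at 23.0 points with q = 0.0159 per the authors' deposited table. It is at position 106984265 of chromosome 7, plus strand, 4835 bp downstream of the gene, whose closest exon runs from 106989100 to 106989499 on the minus strand. This site too was isolated, with the next listed site 657846 bp away.

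F-box and leucine rich repeat protein 19 (ENSBTAG00000040555) had the most sites of all member genes, 18, and gives the only profile of single sites along a member gene. The protein carries a CXXC domain that binds unmethylated CpG islands. Of the 18 sites 8 were negative and 10 positive, with a median of 0.705 points. The called site, 7962 bp before the first 5′ untranslated region (27002887 to 27003672 of chromosome 25), was listed at -14.7 points (q = 0.0167, position 26994925) per the authors' deposited table. The other 3 sites more than 5 kb before the gene were listed at -2.75, 0.885 and -4.36 points, with q between 0.296 and 0.411, per the authors' deposited table. Closer to the gene, 6 sites within 5 kb ranged from -1.04 to 10.5 points with a median of 1.14 points. The highest of them, 2060 bp before the untranslated region, had q = 0.295 per the authors' deposited table despite its 10.5 points. The 6 intronic sites ranged from -4.82 to 3.53 points, and the 2 sites at the second 5′ exon were at 1.91 and -0.417 points, as taken from the authors' deposited table. Of the 26 autosomal genes with at least 15 listed sites within 10 kb, 19 (73.1%) had a called site, so a call in a gene with this many sites was common.

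Within the same span, 7 further sites had a CpG island (27006039 to 27006539) as their closest feature and so belong to no gene by the rule. A negative difference was listed at 6 of them, and their median was -4.79 points. The site at position 27006533 was called, at -19.4 points with q = 0.0167, per the authors' deposited table. Its neighbours at 27006494 and 27006499 were listed at -11.5 points (q = 0.0604) and -10.1 points (q = 0.151) per the authors' deposited table, while the 3 sites at 27006439 to 27006452 lay between -1.60 and 0.128 points. The last site, at 27006539, was listed at -4.79 points (q = 0.587) per the authors' deposited table, so the values below -10 points belonged to 3 sites near the distal edge of the island.

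**Figure D2:**
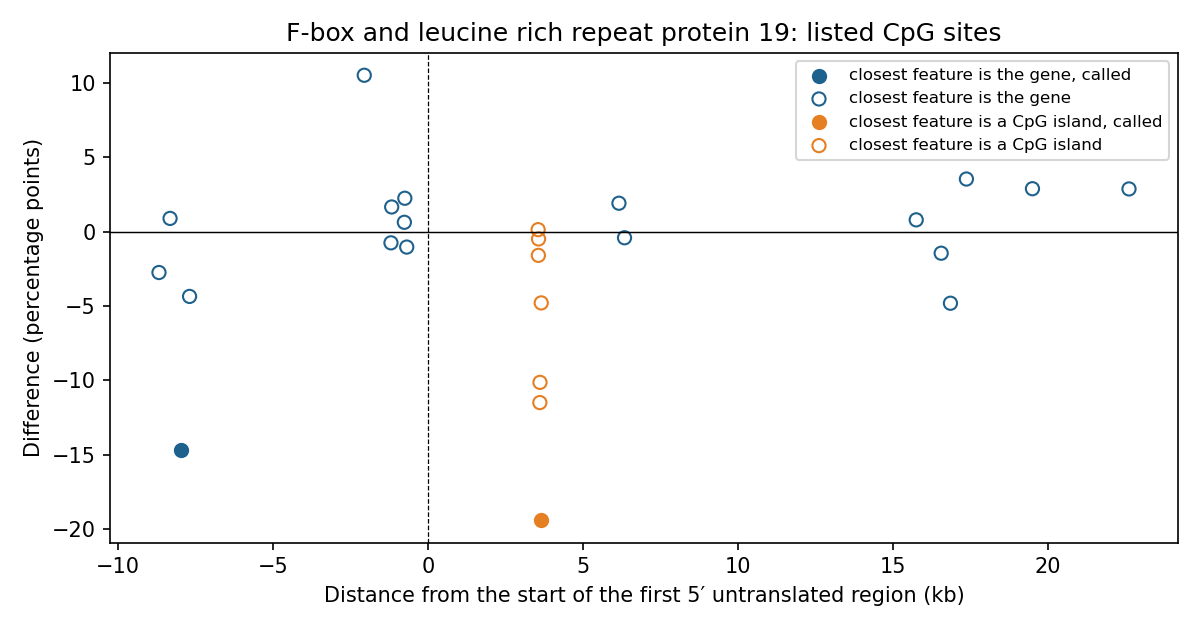
Methylation difference (y axis, percentage points) of the 25 listed CpG sites in the span of F-box and leucine rich repeat protein 19, against the distance from the start of its first 5′ untranslated region (x axis, kb, dashed line at 0). Blue points are the 18 sites whose closest feature is the gene, orange points the 7 closest to a CpG island, and filled points the called sites at -14.7 and -19.4 points.

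Deubiquitinases had no called site among 11, too few to set them apart from the 3.93% called in the background. Their 11 sites near 10 genes were 3 negative, 6 positive and 2 exactly 0, all between -4.17 and 5.91 points, and 1 had an unadjusted p below 0.05. The highest was an intronic site of MINDY lysine 48 deubiquitinase 2, which cleaves the chains that lead to the proteasome, at 5.91 points (q = 0.548) per the authors' deposited table. Ubiquitin specific peptidase 45 had sites 34 bp apart at -1.96 and 1.97 points, of opposite sign, per the authors' deposited table. The lone gene of the cullin group, defective in cullin neddylation 1 domain containing 4, was listed at exactly 0.

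Of the members outside these groups, ubiquitination factor E4B, which extends ubiquitin chains, had 4 sites on chromosome 16. A pair in its promoter class, 5 bp apart at 43473793 and 43473798, was listed at -6.98 points (q = 0.0433) and -4.76 points (q = 0.105), per the authors' deposited table. The intronic site was at -3.03 points and the downstream site at 3.06 points, with q of 0.223 and 0.197, per the authors' deposited table. With these, 7 of the 98 member sites (7.14%) had q below 0.05, 3 negative and 4 positive, against 5.58% of background sites (3.43% negative and 2.15% positive). An unadjusted p below 0.05 was listed for 17 member sites (17.3%), against 20.6% of background sites.

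The tiles differed from the sites: differences were small, mostly negative and often with low q-values, which was also true of background tiles. Of the 90 member tiles 82.2% were negative, against 63.3% in the background. All 90 were under 5 points, against 87.3% of background tiles. None of the 90 member tiles was called, against 2.05% of 1752 autosomal tiles within 10 kb of a gene, and no member gene of 14 had a called tile, against 1.98% of 455 genes. In contrast 61 tiles (67.8%) had q below 0.05 and 58 had an unadjusted p below 0.05, and the background shares were 67.4% and 60.0%. No second tool could be run on these values. The authors' q-values of tiles often lie below the p-values, and no source used here says if their test took the spread between samples into account. Among the 61 tiles, 53 were negative and 8 positive. In the background 46.0% of tiles had q below 0.05 with a negative and 21.4% with a positive difference. The median of the member tiles was -1.80 points, against -0.383 points in the background. The lower median rested on 2 genes. Without them the member median was -0.367 points, and 37 of 53 tiles (69.8%) were negative, against 63.3% in the background. The share with q below 0.05 was 47.2% without these 2 genes.

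Those genes carry the same name, ubiquitin carboxyl-terminal hydrolase 17-like protein 6, and belong to a multi-copy family of deubiquitinases. One lies on chromosome 3 (ENSBTAG00000030892, 16 tiles from 120965601 to 120968800) and the other on chromosome 4 (ENSBTAG00000030838, 21 tiles from 119842601 to 119845600). All 37 tiles were negative and 36 had q below 0.05. On chromosome 3 the tiles ranged from -4.00 to -1.085 points with a median of -2.92 points. The lowest tile, 120967001 to 120967500 in the coding block from 120966011 to 120967515, had q = 7.08e-40 per the authors' deposited table. On chromosome 4 they ranged from -3.96 to -1.89 points with a median of -3.38 points. The lowest there, 119844301 to 119844800 at the end of the coding sequence, had q = 2.06e-149 per the authors' deposited table, although the difference was under 4 points. The q-value of that tile is the 66th lowest of all 7290 tiles. Tile q-values do not follow the order of p across chromosomes, so this rank is only a rough one. How alike the sequences of these genes are was not tested here. In a multi-copy family reads may be shared between copies, and how the authors treated such reads is not given in the sources used here, so the values are reported as uncertain.

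The negative differences did not stop at the genes. Within 100 kb, 5 other tiles on chromosome 3 were all negative (median -2.13 points), and 15 of 16 on chromosome 4 were (median -2.62 points). The feature closest to each of these tiles was a CpG island. Over all other tiles of the chromosomes the medians were -0.110 points on chromosome 3 and -0.224 points on chromosome 4. Of the 19 autosomal genes with at least 15 tiles, 7 had only negative tiles, these 2 among them, and their medians ranked 6 and 8 from the lowest. Single sites of chromosomes 3 and 4 were not analysed here, so the tiles could not be set against sites.

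**Figure D3:**
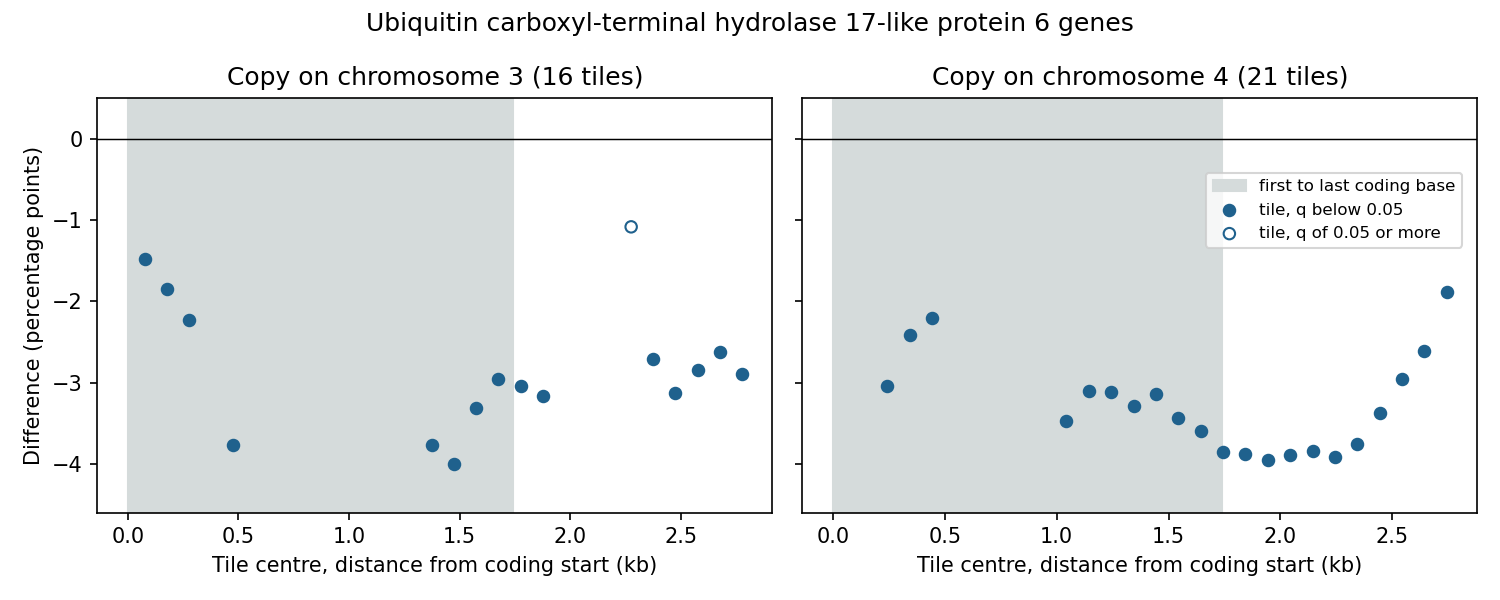
Methylation difference (y axis, percentage points) of tiles near the 2 genes named ubiquitin carboxyl-terminal hydrolase 17-like protein 6, against the distance of the tile's centre from the first coding base (x axis, kb), with the span from first to last coding base shaded. Every tile lies below 0, between -4.00 and -1.085 points, and the 1 open point on chromosome 3 has q of 0.0711.

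F-box protein 16 had the most tiles of any member, 30, and its signs changed along the gene. These tiles lie at the 3′ end of the gene on chromosome 8, from 10289901 to 10297200, and 23 were negative and 7 positive, with a median of -0.799 points. From 10292001 to 10292900 all 5 tiles were negative, from -3.79 to -2.085 points, and each had q below 0.05. The next 6, from 10293601 to 10294600 in the last untranslated region, were positive, from 0.527 to 1.34 points, and 4 of them had q below 0.05. A further run of 16 negative tiles followed, from -3.36 to -0.066 points, of which 6 had q below 0.05, the lowest at 3.52e-09 per the authors' deposited table. In this run 5 tiles repeat the difference and p of another. Those starting at 10295201 and 10295301 share -3.356 points, and those starting at 10295701, 10295801 and 10295901 share -0.912 points. The 16 and the 6 thus count some values more than once. Neighbouring tiles share up to 400 bp, so the tiles of a run are not independent measurements, and the 90 member tiles form 18 separate stretches. Within 100 kb of the gene 7 other tiles were listed, all negative, with a median of -1.50 points. Over all other tiles of chromosome 8 the median was -0.188 points. Of the 19 autosomal genes with at least 15 tiles, F-box protein 16 ranked 13 from the lowest by its median.

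**Figure D4:**
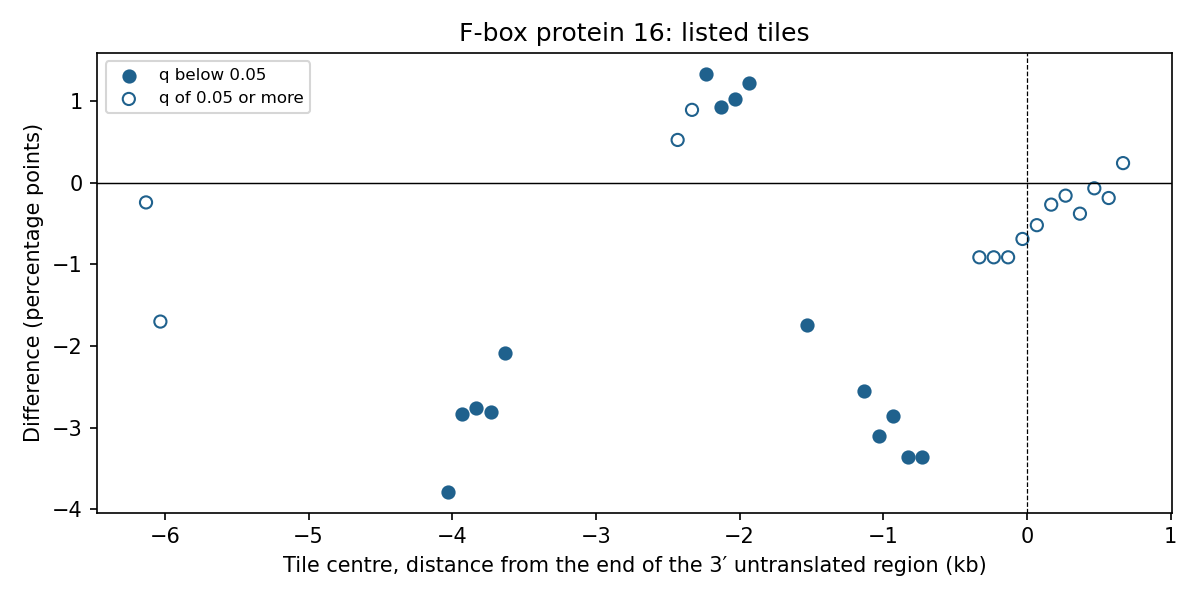
Methylation difference (y axis, percentage points) of the 30 tiles near F-box protein 16 against the distance of the tile's centre from the end of the 3′ untranslated region (x axis, kb, dashed line at 0). Filled points have q below 0.05 and show a negative run, a positive run of up to 1.34 points and a second negative run down to -3.36 points.

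The other 23 tiles, near 11 genes, lay between -1.64 and 1.46 points. Of these 10 (43.5%, against 67.4% of background tiles) had q below 0.05, 6 negative and 4 positive. Fewer, 7 (30.4%, against 60.0%), had an unadjusted p below 0.05, so some of the 10 had a q below their p. Positive tiles were listed at the 5′ untranslated region of ubiquitin specific peptidase 3, a deubiquitinase of histones, at 1.19 points (q = 1.27e-05) and 1.46 points (q = 4.05e-08) per the authors' deposited table. These tiles overlap by 400 bp. F-box protein 8 had a tile over the start of its 5′ untranslated region, listed as 1.35 points (q = 1.56e-10) per the authors' deposited table. The 4 tiles of F-box protein 3 were all negative, down to -0.674 points (q = 0.000801) per the authors' deposited table. At ring finger protein 187 the single tile was listed at -0.561 points (q = 0.000286) per the authors' deposited table. The tiles at ubiquitin conjugating enzyme E2 S, which extends chains with the anaphase promoting complex, and at ring finger protein 167, a membrane-bound ligase, were between -0.415 and -0.298 points.

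For the 6 genes in both tables the loci rarely coincided. Only 2 of the 98 member sites fell inside a listed tile, both in an intron of ubiquitin conjugating enzyme E2 D3 (UBE2D3) on chromosome 6. The sites, at 22016501 and 22016512, were listed at -2.41 points (q = 0.236) and 1.06 points (q = 0.445), and the tiles over them at -1.54 points (q = 0.00177) and -1.64 points (q = 0.000846), per the authors' deposited table. At parkin the tiles, 97490401 to 97491100, had the authors' class downstream. Their closest feature is an intron listed with its start (97955254) above its end (97496410), so whether they lie outside the gene is uncertain. The tiles were at -0.856 to -0.531 points with the lowest q at 0.192 per the authors' deposited table. They did not cover the called site of parkin. MINDY lysine 48 deubiquitinase 2 had tiles at its 5′ end between -0.211 and 0.553 points (lowest q = 0.0505) per the authors' deposited table. Ubiquitin associated protein 2 had 3 promoter tiles between 0.158 and 0.226 points, and its site, 5724 bp from the untranslated region, was listed at -2.17 points (q = 0.427), per the authors' deposited table. Pellino E3 ubiquitin protein ligase family member 2, of the Toll-like receptor pathway, had a tile at 0.281 points (q = 0.0603) and an intronic site at -2.63 points (q = 0.556) per the authors' deposited table. Ubiquitin specific peptidase 3, with the positive tiles above, had an intronic site at exactly 0 per the authors' deposited table.

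Member loci were mostly inside genes. Introns were the closest feature of 63 of the 98 sites (64.3%), against 56.5% in the background, and coding sequence of 10 (10.2%), against 22.6%. By the authors' position classes 71 sites (72.4%, background 60.8%) were inside a feature, 19 (19.4%, background 18.6%) in the wide promoter class and 8 (8.16%, background 20.6%) downstream. Of these 2, 1 and 1 were called, where 2.96%, 6.71% and 4.26% of background sites of these classes were, so the counts are too small to set the classes apart. Of the 19 promoter sites 11 belonged to F-box and leucine rich repeat protein 19. Among tiles, coding sequence (36 of 90) and 3′ untranslated regions (26 of 90) were the most common, and all of the latter were those of F-box protein 16. The 12 tiles at 5′ untranslated regions had a median of 0.224 points, while methylation levels themselves were not analysed here.

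Further genes that the names do not capture were taken by a list of terms, including proteasome, kelch like, SUMO, NEDD, BTB domain, SOCS box and autophagy related. The terms match words in the full name, so not every gene taken need belong to the ubiquitin pathway. Examples are SUMO specific peptidase 3, autophagy related 2B and some zinc finger genes with a BTB domain. The list gave 39 sites near 31 genes, with 18 negative, 17 positive and 4 at 0, between -5.31 and 8.85 points. None was called and none had q below 0.05, where 3.93% and 5.58% of background sites did. At those shares, 39 sites are too few for a count of 0 to set the list apart. An unadjusted p below 0.05 was listed for 3 of the 39 sites (7.69%), against 20.6% of background sites. Among them were 6 genes named for the proteasome, the protease that degrades marked proteins, from proteasome 26S subunit, non-ATPase 9 at -3.14 points (q = 0.386) to proteasome activator subunit 3 interacting protein 1 at 7.375 points (q = 0.160), by the authors' deposited table. The list held 11 tiles near 7 genes, between -0.944 and 0.996 points. An authors' q below 0.05 was listed for 7 (63.6%, against 67.4% of background tiles), 3 negative and 4 positive. Of those, 5 were tiles of autophagy related 12, a ubiquitin-like conjugation protein.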

How the data were processed

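The members and the lists were chosen with earlier results of these data known. Per the labels' protocols, DNA was extracted from sperm with a column kit and libraries were made by EM-seq. Trimmomatic, Bismark and methylKit and the build ARS-UCD1.2 are listed, without version or role, per the submitters' processing notes. Per the file headers, the authors deposited a signed methylation difference (a score in percentage points) with its p-value and q-value for each locus, with the closest feature and the distance to it in bp, another number of the authors. Their test, its covariates and coverage filters are not given in the sources used here. Site and tile q-values followed the order of p within each of the 24 and 27 chromosomes but not across chromosomes.

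Loci were read with Python 3.11.15 and pandas 2.3.3, assigned to genes by the identifier in the annotation, and grouped by full name, and the selection and the call rule were tested on simulated data. Distance is counted to the edge of the feature, so a locus deep inside a long intron can lie over 10 kb away. Of 10 member genes with an NCBI number, 10 matched the gene table of ARS-UCD2.0, which was used for symbols only. Named genes are those with a called locus, the 5 with most sites, the 5 with most tiles, those in both tables and the 5 with the largest difference at q of 0.05 or more; others were named after their values were seen. No new test was run. Sites of chromosomes 2, 3, 4, 12, 23 and 27 and tiles of chromosomes 12, 23 and 27 were not analysed here. The background is all autosomal loci outside the chromosome 29 stretch whose closest feature belongs to a gene and lies within 10 kb. Loci closest to a CpG island are thus in neither the members nor the background. Other thresholds, distances and adjustments were tried. No sequence was printed, since no genome of this build was used here.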

Additional observations from a re-analysis of the deposited data

How the results depend on the processing

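No paired analysis was possible because the tables hold no values of single samples, and leaving out single samples was impossible for the same reason. No member locus lay at a distance of 0 bp, so that setting gave no value. The number of called sites, 4 in 4 genes, was 7 in 7 genes at a minimum of 5 points and with no minimum, 2 in 2 genes at q below 0.01, 0 at a distance of at most 2000 bp and 3 at a minimum of 20 points or without the ubiquitin like name. Settings added after seeing the data gave 2 called sites in 2 genes inside a feature, 11 in 6 genes at any distance and 4 with a Benjamini-Hochberg adjustment over all listed sites. The negative share of called sites, 1 of 4 above, was 0% at a minimum of 20 points, at q below 0.01 and inside a feature, but 42.9% at a minimum of 5 points and with no minimum, and 63.6% at any distance. For tiles the count was 0, and 0 under each other setting, except 61 in 10 genes with no minimum difference and 1 in 1 gene at any distance. The median tile difference, -1.80 points, was -0.374 points as the median of gene medians and -0.367 points without the 17-like genes. With so few calls, these counts limit what can be said of the group, and depth per locus is unknown.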

Other observations

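The distance limit leaves out loci deep inside long introns, and 1 ubiquitin gene with a run of calls was among them. The choice of this gene was made with its values in view. OTU deubiquitinase 7A (ENSBTAG00000006868), which removes ubiquitin chains, had 19 listed sites between 30090250 and 30090525 of chromosome 21, inside an intron and 22661 to 22936 bp from its edge. All 19 differences were negative, with a median of -8.17 points, and 8 had q below 0.05, of which 6 were called. By the authors' deposited table the lowest was -21.9 points (q = 0.00369) at position 30090525. The 5 tiles there, 30089901 to 30090800, were negative as well, from -7.92 to -6.74 points, with the lowest q at 5.18e-27 per the authors' deposited table. Sites and tiles come from the same samples and the same stretch of under 1 kb, so they are not independent.

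Ring finger protein 180, a membrane-bound ligase, was the closest gene of 8 tiles on chromosome 20, at least 37058 bp away, and all were negative, from -10.1 to -5.835 points. Of these tiles 1 was called, at -10.1 points (q = 2.58e-55) per the authors' deposited table. The 7 sites listed for this gene were 6 negative and 1 positive, and none had q below 0.05. A site 12664 bp from tripartite motif containing 2 was called at 16.5 points (q = 0.0171) per the authors' deposited table. In all, 65 sites near 25 genes and 15 tiles near 3 genes met the name rule but lay beyond 10 kb, with 7 and 1 called. Among all autosomal loci beyond 10 kb from the gene feature closest to them, 4.52% of 3538 sites and 3.56% of 982 tiles were called. Of the 7 called sites 6 were those of OTU deubiquitinase 7A, so the count describes that stretch rather than the 25 genes. Just inside the limit were sites of F-box and leucine rich repeat protein 4 (9637 bp, -2.70 points) and ring finger protein 138 (9741 bp, -3.54 points), and just outside it sites of tripartite motif containing 66 (10448 bp, -4.98 points) and tripartite motif containing 69 (11799 bp, 4.39 points), per the authors' deposited table.

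Of all 157 called autosomal sites near a gene, 64 (40.8%) had no other listed site within 2000 bp, and 34 of those 64 were positive. The called sites of ubiquitin like modifier activating enzyme 6, parkin and F-box and leucine rich repeat protein 17 were of this kind and all positive.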
